A study of Sus scrofa with 22 samples.

Results

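Tight junction and gap junction genes were examined in cells of the porcine endometrium on Day 12, namely the luminal epithelium (LE), the glands (GE) and the stroma (S). The group was defined by gene symbol alone. It holds the claudins, the connexins (GJA, GJB and GJC genes), occludin and its MARVEL relatives, the angulins LSR and ILDR1, the junctional adhesion molecules with CXADR, and the zonula occludens, cingulin, MAGI, polarity and angiomotin genes of the cytoplasmic plaque. In the annotation, 66 genes carried such a symbol, and 40 of them were listed among the 12401 genes of the count tables. LE listed 35 of these genes, GE 37 and S 37, with 33 in common. The listed genes were 9 of 22 claudins, 5 of 17 connexins, 6 of 6 MARVEL and angulin genes, 4 of 4 adhesion molecules, 8 of 8 scaffolds, 5 of 6 polarity genes and 3 of 3 angiomotins. The other 26, among them CLDN5, GJA4, GJB1, GJB2 and PARD6A, were not analysed here.

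The cells were collected by laser capture microdissection (LCM) from crossbred gilts whose ovulation had been induced with PMSG and hCG. Pregnant gilts (n = 4) had been inseminated with semen, and cyclic control gilts (n = 4) with the supernatant of centrifuged semen. For each gilt there is 1 LE and 1 GE library, and 3 pregnant and 3 control gilts also have an S library, 22 libraries in all. Control gilts carry the numbers 02, 04, 06 and 13, pregnant gilts 01, 03, 05 and 14, and S libraries come from gilts 02, 04 and 13 and from gilts 01, 05 and 14. Values of single libraries are given below in this order, as CPM, the counts scaled to the effective size of each library, on 1 scale for all libraries.

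Tight junctions seal the space between epithelial cells near the apical surface. Claudins form the strands and decide which ions and solutes pass, occludin and tricellulin (MARVELD2) belong to the strands, and the angulins mark the corners where several cells meet. Scaffolds such as TJP1 (ZO-1) and cingulin tie the strands to actin, and the Par and Crumbs proteins set the apical side of the cell. Gap junctions are built from connexins and let ions and small metabolites pass directly between neighbouring cells. In the pig, the conceptus elongates and attaches to an intact luminal epithelium, so that these junctions lie at the contact surface between mother and embryo.

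Library totals on listed genes ranged from 893912 (pregnant LE of gilt 01) to 4020796 counts, so that 3 counts correspond to 0.703 to 3.61 CPM. The marker genes did not bear out the label of the S libraries. The 8 epithelial markers (EPCAM, CDH1, keratins, ESRP1, ELF3) summed to 2542 to 3077 CPM in control S and 2768 to 3378 in control LE, and the 8 fibroblast markers (collagens, DCN, LUM and others) to 4709 to 8645 in control S and 11656 to 17278 in control LE. The 8 blood endothelial markers summed to 271 to 479 CPM in control S and 629 to 955 in control LE. In control gilts the LE libraries thus carried more fibroblast and endothelial marker RNA than the S libraries. Libraries labelled as stroma are therefore called S libraries here, and LE libraries are not taken as pure epithelium. ACP5, a gland marker, was at 647 to 2968 CPM in control GE, 158 to 352 in control LE and 180 to 592 in control S. In pregnant S it was at 260 to 2860 CPM, and within gilts it was called higher in S than in LE (log2 difference 3.60 in edgeR). FOXA2, the other gland marker, was listed in GE (16.6 to 79.1 CPM in control) and in S (11.3 to 63.0) but not in LE. Of the libraries that stood apart, control GE of gilt 02 had the lowest epithelial sum (708 CPM) and the highest GE sums for fibroblasts (46221) and the 8 blood endothelial markers (1281). Pregnant S of gilt 01 had corresponding sums of 1012, 59664 and 1958, while pregnant S of gilt 05 had 3683, 8227 and 455. Pregnant LE of gilt 01 had the lowest epithelial sum of LE (1946), the highest fibroblast (20635) and endothelial sums (1614), and a sum of 5126 for smooth muscle markers (3 of 6 listed), against 125 to 642 in the other LE libraries.

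**Figure D1:**
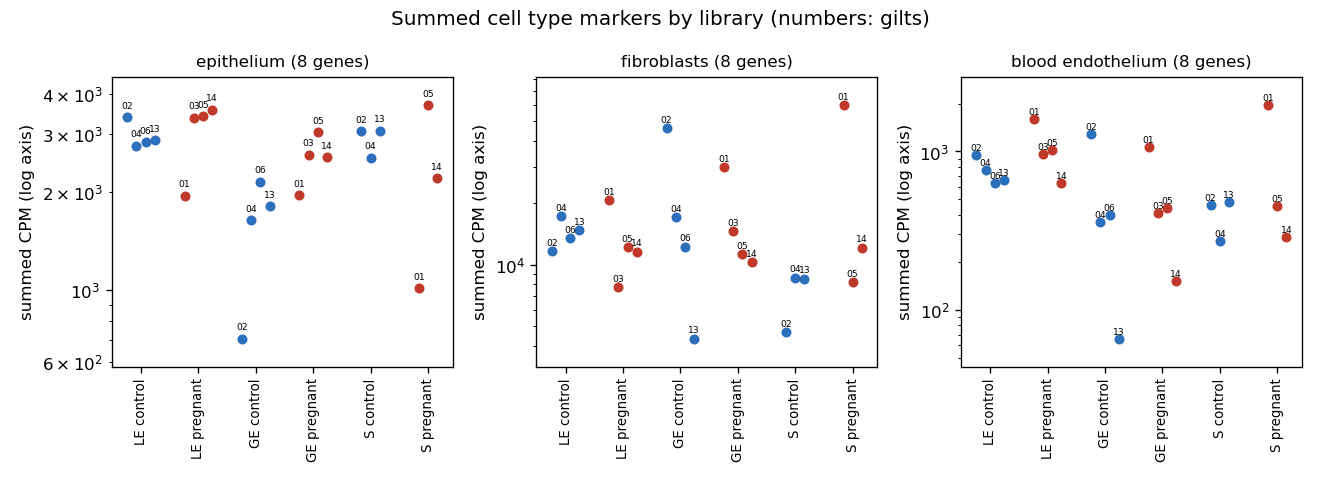
Summed CPM (log axis) of 8 epithelial, 8 fibroblast and 8 blood endothelial marker genes in each of the 22 libraries, with the gilt number at each point (blue control, red pregnant). Control GE of gilt 02 and pregnant S of gilt 01 have the lowest epithelial sums (708 and 1012) and the highest fibroblast sums (46221 and 59664), and control S does not lie above control LE in fibroblast markers.

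Of 35 junction genes tested in LE, 13 were higher and 2 lower in pregnant gilts (edgeR quasi-likelihood test, FDR below 0.01), that is 42.9% of them, where 10.0% of all 11415 LE genes were called. The median log2 FC of the junction genes was 0.58, against 0.01 for all genes. Among the genes that rose were the claudins CLDN1, CLDN3, CLDN4 and CLDN12, the connexins GJA1 and GJB5, occludin, MARVELD2, F11R, CRB3, PARD6B and MAGI3, and those that fell were CLDN8 and TJP1. Pregnant and control libraries did not overlap for 20 of the 35 (15 higher, 5 lower), which was the case for 26.7% of all LE genes. The sums of epithelial (1946 to 3571 CPM) and fibroblast markers (7756 to 20635) in pregnant LE overlapped with those in control LE, but 6 of the 8 epithelial markers did not overlap. CDH1 (0.93 ± 0.21) and ELF3 (1.11 ± 0.23) rose, KRT7 (−1.65 ± 0.29), KRT8 (−1.37 ± 0.22) and KRT19 (−2.19 ± 0.45) fell on the log2 scale, and KRT18 was lower in every pregnant library without a call (FDR 0.0198). EPCAM and ESRP1 overlapped and were not called. Leukocyte markers (5 of 9 listed) summed to 283 to 333 CPM in pregnant and 155 to 258 in control LE. In this sum LAPTM5 was at 208 to 269 in pregnant and 56.4 to 89.0 in control LE and CD68 at 7.23 to 13.9 and 3.76 to 7.03, while PTPRC (16.5 to 27.6 and 27.8 to 78.2), CSF1R (13.3 to 32.4 and 28.2 to 45.4) and CD163 (9.26 to 24.1 and 17.7 to 38.4) had lower means in pregnant LE. The part of these markers in the LE results was not tested. In such captured tissue a change in the number of cells of a type cannot be told apart from a change of RNA per cell. With only the 6 gilts that also have an S library, 8 junction genes were called. Without the pregnant LE library of gilt 01 the count was 13. For these refits the shares of all LE genes called are not given here, so the drop cannot be read as particular to junction genes.

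**Figure D2:**
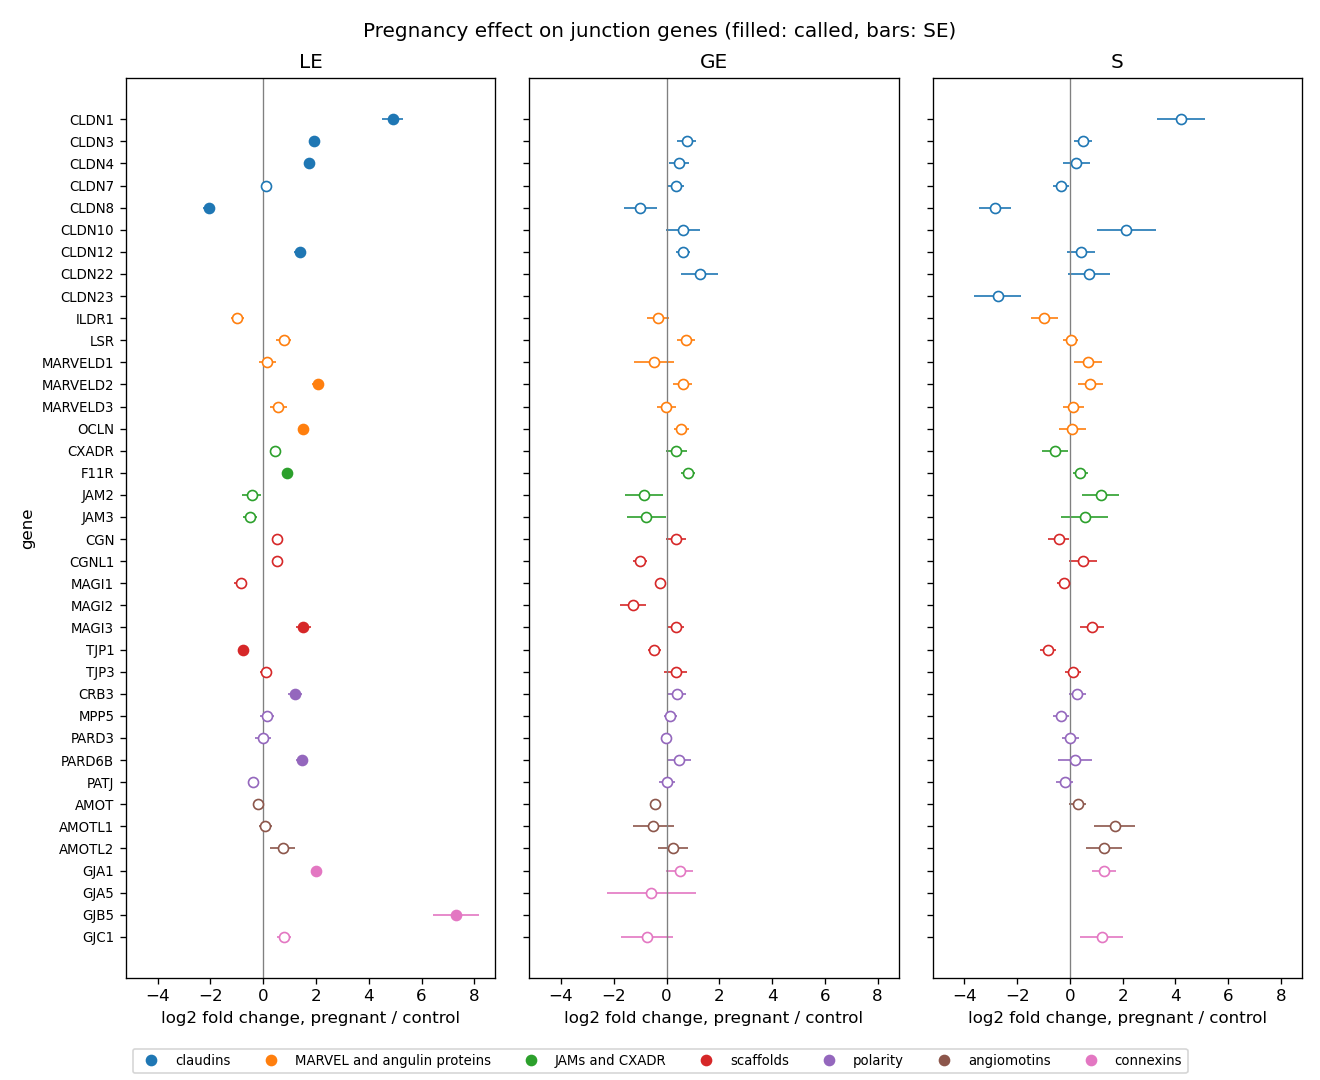
Log2 FC of pregnant against control gilts (x axis, bars SE from edgeR) for 38 of the listed junction genes in LE, GE and S, coloured by family, with filled points for called genes. In LE 14 points are filled, with GJB5 and CLDN1 farthest to the right (7.31 and 4.91) and CLDN8 farthest to the left (−2.06), whereas no point is filled in GE and S.

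Among the claudins of LE, the gene with the largest increase was CLDN1, a barrier-forming claudin. Control LE libraries were at 2.26, 1.09, 4.23 and 1.64 CPM and pregnant ones at 96.4, 51.0, 71.6 and 56.4. The lowest pregnant library thus lay far above the highest control, and the log2 FC was 4.91 ± 0.39 (SE; FDR 5.18e-05). A share of 5.48% of the 50-base windows in CLDN1 exons was also found in another gene (LOC396566), so that a part of its reads could be assigned in more than 1 way. The neighbouring genes CLDN3 and CLDN4, both sealing claudins, rose together. CLDN3 was at 103, 72.1, 82.2 and 74.7 CPM in control and 293, 353, 285 and 320.2 in pregnant LE (log2 FC 1.91 ± 0.17, FDR 9.72e-05). CLDN4 was at 358, 263, 285 and 269.6 CPM in control and 1176, 1143, 857 and 804 in pregnant LE (log2 FC 1.75 ± 0.19, FDR 0.000282). For both genes all pregnant libraries exceeded all controls. CLDN12, a claudin associated with paracellular calcium transport, was at 47.8, 44.1, 41.6 and 36.8 CPM in control and 68.7, 106, 146 and 122 in pregnant LE (log2 FC 1.39 ± 0.23, FDR 0.00219), also without overlap.

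CLDN8, which takes part in the paracellular chloride path and cation barrier of tight epithelia, went the other way. Control LE libraries had 804, 607, 763 and 776 CPM and pregnant ones 217, 136, 126 and 232. All pregnant libraries were below all controls (log2 FC −2.06 ± 0.24, FDR 0.000339), and the gene fell 4.18-fold. CLDN7, the remaining claudin listed in LE, was at 107 to 153 CPM in control and 110.2 to 165 in pregnant LE, and these ranges overlapped (FDR 0.760).

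Of the other membrane proteins of the tight junction, the MARVEL proteins OCLN and MARVELD2 rose in LE. OCLN was at 262, 294, 284 and 337 CPM in control and 576, 859.6, 953 and 1007 in pregnant LE (log2 FC 1.52 ± 0.21, FDR 0.000774). MARVELD2 (tricellulin), which seals the corners between cells, was at 75.6, 85.7, 105 and 102 in control and 296, 309.5, 479 and 460.5 in pregnant LE (log2 FC 2.06 ± 0.22, FDR 0.00022). Neither gene overlapped between the groups. The angulins, which recruit tricellulin to these corners, were not called. ILDR1 was at 115 to 143 CPM in control and 34.9 to 89.3 in pregnant LE without overlap (log2 FC −0.99 ± 0.25, FDR 0.0198), and LSR at 30.0 to 48.5 and 45.8 to 105 with overlap (log2 FC 0.77 ± 0.29, FDR 0.0780). MARVELD1 (0.15), annotated as a non-coding RNA gene, and MARVELD3 (0.58) gave log2 FC that did not pass the test.

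F11R (JAM-A), an adhesion molecule of epithelial junctions that binds the Par complex, was at 52.3, 37.0, 41.6 and 39.8 CPM in control and 69.9, 75.9, 82.1 and 94.4 in pregnant LE, without overlap. Its log2 FC was 0.92 ± 0.18 (FDR 0.00511), the smallest increase among the called genes. This call was lost on leaving out any of 4 of the 8 LE libraries, one at a time. CXADR (0.47), a virus receptor and epithelial adhesion molecule, JAM2 (−0.43) and JAM3 (−0.50), which are also expressed in endothelium, had log2 FC that did not pass.

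In the cytoplasmic plaque, 2 of 7 scaffolds and 2 of 5 polarity genes were called in LE, and none of the 3 angiomotins. TJP1 was at 871, 716, 905 and 897 CPM in control and 426, 489.5, 516 and 571 in pregnant LE. It fell without overlap between the groups (log2 FC −0.76 ± 0.17, FDR 0.00927), while TJP3 (ZO-3), with 21.2 to 36.9 CPM in control and 26.5 to 40.9 in pregnant LE, overlapped and did not pass (FDR 0.766). MAGI3, a membrane-associated guanylate kinase, was at 163, 126, 145 and 113 CPM in control and 276, 355, 657 and 278 in pregnant LE (log2 FC 1.51 ± 0.29, FDR 0.00489). Its relative MAGI1 was at 126 to 221 in control and 61.1 to 107 in pregnant LE, without overlap in the opposite direction (log2 FC −0.85 ± 0.25, FDR 0.0342). Cingulin (CGN) and CGNL1, which link the plaque to actomyosin, were both higher in every pregnant library than in any control, but with log2 FC of 0.54 and 0.51 they did not pass (FDR 0.0286 and 0.0911).

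PARD6B, a core Par polarity protein, was at 16.9, 13.9, 13.4 and 20.8 CPM in control and 42.2, 52.6, 41.0 and 45.9 in pregnant LE (log2 FC 1.47 ± 0.21, FDR 0.00107). CRB3, the epithelial Crumbs protein, was at 85.7, 61.2, 53.6 and 56.0 CPM in control and 177, 194, 137 and 85.5 in pregnant LE, so that the lowest pregnant library lay level with the highest control. Its log2 FC of 1.20 ± 0.26 was called at an FDR of 0.00999, just inside the threshold. PARD3 (−0.02), MPP5 (PALS1; 0.16) and PATJ (−0.39) did not pass, although PATJ was lower in every pregnant LE library (163 to 235) than in any control (250.3 to 301 CPM). AMOT, AMOTL1 and AMOTL2, which bind actin and the Hippo effector YAP, gave log2 FC of −0.22, 0.08 and 0.74 and no call, and AMOTL2 was highest in the shallow library of gilt 01 (98.8 CPM against 18.8 to 33.9 in the other pregnant libraries). That library also had the high fibroblast and smooth muscle sums given above, whose part in this value was not tested. The calls of TJP1 and CRB3 were lost when any of 7 of the 8 LE libraries was left out, and that of MAGI3 for 4 of 8. Of the CRB3 and MAGI3 exon sequence, 33.9% and 31.4% lies on exons of DENND1C and PHTF1 on the opposite strand, and the use of strand in counting is not given in the sources used here. PHTF1 itself had a log2 FC of −0.94 ± 0.25 in LE (FDR 0.0216), opposite in sign to MAGI3, and DENND1C was not analysed here.

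A connexin gave the largest log2 FC of the whole group. GJB5 (connexin 31.1), listed in LE only, had 0, 0, 0 and 1 count in the control libraries and 19.3, 38.2, 10.2 and 8.87 CPM in pregnant LE. Against a floor of 3 counts per control library, pregnant LE was at least 20.7-fold higher (FDR 0.000389). Every pregnant library stood clear of the controls, and gilt 03 was the highest and gilt 14 the lowest. A share of 5.46% of the 50-base windows of GJB5 is shared with another gene. GJA1 (connexin 43), a widely expressed connexin, was already present in control LE at 97.4, 123, 113 and 97.7 CPM and reached 461, 363, 418 and 473 in pregnant LE. All pregnant libraries were well above the controls (log2 FC 1.98 ± 0.17, FDR 6.66e-05). GJC1 (connexin 45) was at 27.5 to 39.4 in control and 39.3 to 97.6 in pregnant LE, with the lowest pregnant library just below the highest control, and did not pass (log2 FC 0.77 ± 0.27, FDR 0.0628). Its highest value was in the library of gilt 01, which had the high fibroblast and smooth muscle sums given above. The part of those sums in this value was not tested.

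**Figure D3:**
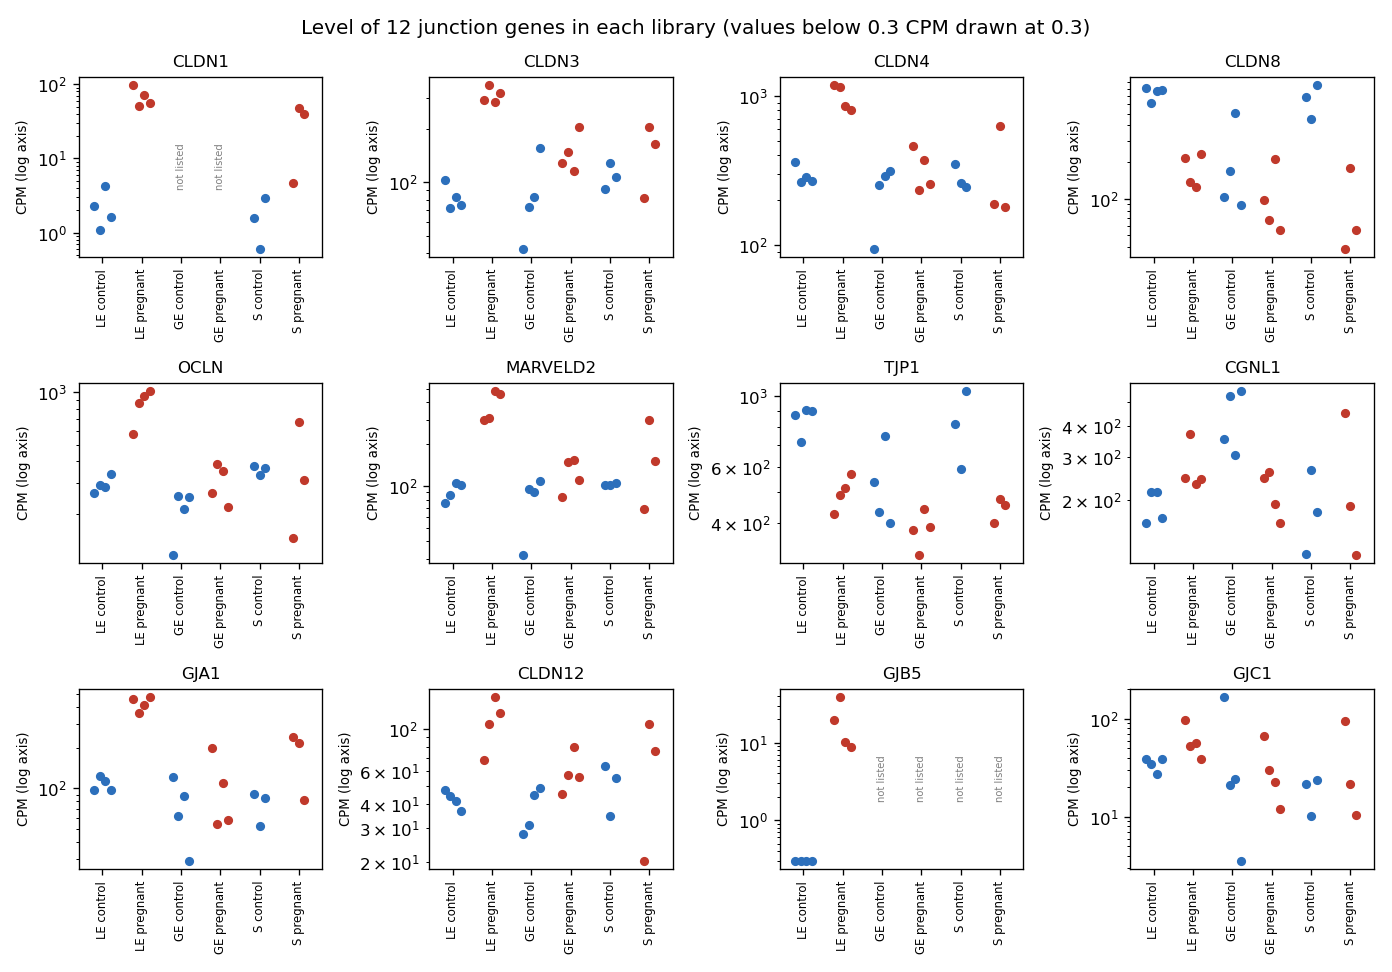
CPM (log axis) of 12 junction genes in every library of the 6 groups (blue control, red pregnant, libraries in the order of the gilt numbers). In LE, CLDN1, CLDN3, CLDN4, CLDN12, OCLN, MARVELD2, GJA1 and GJB5 of pregnant gilts lie above all controls and CLDN8 and TJP1 below, whereas most genes overlap between the groups in GE and S.

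In GE, 1 of 37 junction genes was called (p below 0.0021, unadjusted), with 0.694% of all 11676 GE genes called. The median log2 FC of the junction genes was 0.34 in GE, against −0.02 for all genes, and 22 of 37 estimates were above 0. Pregnant and control GE did not overlap for 3 of the 37 (4.97% of all GE genes), among them CGNL1 and AMOT. CGNL1 was at 354, 527, 305 and 550.4 CPM in control and 245, 260.4, 193 and 162 in pregnant GE. All pregnant values were lower, but the log2 FC of −1.01 ± 0.25 did not pass the threshold (quasi-likelihood p 0.00326, FDR 0.327). AMOT was at 186 to 242 in control and 133 to 186 in pregnant GE (log2 FC −0.44 ± 0.17, FDR 0.542).

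Most of the genes that rose in LE had overlapping groups in GE. CLDN4 was at 94.1, 251, 289.8 and 314 CPM in control and 464, 232, 369.9 and 255 in pregnant GE (log2 FC 0.49 ± 0.38, FDR 0.782), CLDN3 at 42.2 to 157 and 115 to 205 (0.76 ± 0.38, FDR 0.677). GJA1 was at 121, 62.6, 87.3 and 29.0 in control and 199.6, 54.7, 110.4 and 58.5 in pregnant GE (log2 FC 0.49 ± 0.53, FDR 0.850). CLDN8 was at 103, 168, 503 and 89.5 in control and 98.3, 66.6, 212 and 54.9 in pregnant GE, where gilt 06 was far above the other controls (log2 FC −0.99 ± 0.63, FDR 0.734). The spread between control GE libraries was wide. The library of gilt 02 held the lowest value of its group for 20 of 37 junction genes, among them OCLN (117 CPM), MARVELD2 (32.0), CLDN3, CLDN4, CLDN7, CLDN12, CRB3 and CGN, and the highest for 10, among them JAM2, JAM3, AMOTL1, MARVELD1 and GJA1. These values stand beside its low epithelial and high fibroblast and endothelial sums given above, whose part in them was not tested. How often this library was extreme over all genes was not counted.

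GJA5 (connexin 40), known from arterial endothelium and listed in GE only, was at 281, 2.98, 0 and 1.37 CPM in control and 113, 60.7, 16.5 and 6.73 in pregnant GE. A single control library, that of gilt 02, exceeded all others, and the remaining controls were below every pregnant library. The log2 FC over all libraries was −0.58 ± 1.69 (FDR 0.942), and without that library it was 5.24, still with no call. GJC1 was also highest in the control library of gilt 02, at 166, 21.4, 24.2 and 3.56 CPM in control and 66.4, 30.0, 22.7 and 12.0 in pregnant GE (log2 FC −0.74 ± 0.99, and 1.02 without gilt 02). The endothelial genes PECAM1 and CDH5 were at 363 and 269 CPM in control GE of gilt 02 and at 151 and 163 in pregnant GE of gilt 01, the libraries with the most GJA5, and at most 46.2 and 62.6 in the other controls. In pregnant GE of gilts 03, 05 and 14 CDH5 was at 101, 85.1 and 20.9 CPM. The part of endothelial cells in the GJA5 and GJC1 values was not tested. MAGI2, also listed in GE only, was at 3.13 to 11.8 in control and 1.77 to 4.38 in pregnant GE. CLDN10 and CLDN22, listed in GE and S, were at 8.82 to 26.8 and 1.42 to 20.8 CPM in control and 9.63 to 72.3 and 14.2 to 32.2 in pregnant GE. Of the CLDN22 windows 61.6% are shared with LOC100621121, so that its counts are uncertain.

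In S, none of 37 junction genes was called at the threshold that called 1.47% of all 11532 genes (edgeR quasi-likelihood test). At an unadjusted p below 0.05 there were 6 (12.5% of all S genes). The likelihood ratio test of edgeR called 3 and DESeq2 2, and the shares of all genes called by these tests are not given here. The groups did not overlap for 7 of 37 (17.4% of all S genes). CLDN8 was at 686, 452 and 852 CPM in control and 38.8, 177 and 55.8 in pregnant S, well apart. It missed the threshold on the unadjusted p by little (quasi-likelihood p 0.002113, log2 FC −2.85 ± 0.61), with an FDR of 0.139. CLDN1 was at 1.56, 0.606 and 2.94 in control and 4.66, 48.2 and 39.8 in pregnant S. The pregnant library of gilt 01 was only slightly above the controls, and the others were far above. CLDN1 also lay just over the threshold (quasi-likelihood p 0.00237, log2 FC 4.21 ± 0.92, FDR 0.140). TJP1 was at 816, 592 and 1033 in control and 399.7, 476 and 458 in pregnant S, without overlap (log2 FC −0.84 ± 0.31, FDR 0.328). MAGI3, ILDR1 and CLDN23 were also among the genes without overlap. CLDN23, listed in S only, was at 2.34, 10.6 and 10.3 CPM in control and 0, 1.0 and 1.84 in pregnant S, where the values are at or near the floor. CLDN10 was at 4.68 to 15.8 in control and 3.10 to 111 in pregnant S, with gilt 14 highest, and CLDN22 at 1.17 to 8.18 and 2.76 to 11.7.

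The pregnant S libraries differed strongly among themselves. OCLN was at 146, 675 and 314 CPM, against 375, 333 and 368 in control S. MARVELD2 was at 68.3, 301 and 151 in pregnant and 101, 102 and 105 in control S, and GJA1 at 242, 218 and 82.4 and 90.5, 53.0 and 84.9. In this group gilt 05 gave the highest value for 22 of 37 junction genes and gilt 01 the lowest for 22. Gilt 01 was also the highest for 11, among them GJC1 (95.5 CPM), JAM2, JAM3, AMOTL1 and CGNL1 (449). How often these libraries were extreme over all genes was not counted. The epithelial sums of both libraries, given above, have the same order as OCLN and MARVELD2 but not as GJA1. Their part in these values was not tested. Lymphatic endothelial markers (4 of 5 listed) summed to 27.6 to 241 CPM in pregnant and 5.15 to 7.80 in control S, without overlap, and the part of these markers in the S results was not tested. Without gilt 05 the log2 FC of OCLN in S was −0.62 instead of 0.10 and that of CLDN4 −0.59 instead of 0.25.

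Within gilts, the junction genes were for the most part lower in GE than in LE, in the mean of the differences in control and in pregnant gilts. Of 33 genes listed in both, 11 were lower and 2 higher (edgeR with the gilt as a fixed block, FDR below 0.05), whereas 30.9% of all 10851 genes were called. The share of the junction genes called, 39.4%, is thus close to that of all genes, but their median log2 difference was −0.49, against 0.00 for all genes. Among the connexins, GJA1 (−1.43 ± 0.27, FDR 0.00393) was lower in GE, in 7 of 8 gilts. Of the claudins, CLDN8 (−1.49 ± 0.36, FDR 0.0120), CLDN4 (−0.99 ± 0.23) and CLDN12 (−0.51 ± 0.15) were lower. OCLN (−0.99 ± 0.16, FDR 0.00204), CXADR (−0.81 ± 0.20) and TJP1 (−0.53 ± 0.13) were lower in all 8 gilts. MARVELD2 (−0.94), MAGI3 (−0.96) and PARD6B (−0.84) were also lower. For some genes the gap lay mostly in pregnant gilts. MARVELD2 had GE and LE means of 81.7 and 92.1 CPM in control and 124 and 386 in pregnant gilts. For CLDN4 they were 237 and 294 in control and 330 and 995 in pregnant gilts. The gap was wider in control gilts for CLDN8 (216 and 737, against 108 and 178) and TJP1 (530 and 847, against 383 and 501). None of these genes was called in the interaction test below. PATJ, the Crumbs complex scaffold, was higher in GE (0.56 ± 0.17, FDR 0.0311, 7 of 8 gilts). CGNL1 was also called higher (0.43 ± 0.14, FDR 0.0457), but in 4 of 8 gilts only, which were the control gilts. Epithelial markers moved in the same comparison: 4 of 8 were lower (CDH1, ELF3, KRT7 and KRT8) and 1 was higher in GE (KRT19), with the GE sum at 708 to 2146 CPM in control gilts, and their part in these differences was not tested.

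**Figure D4:**
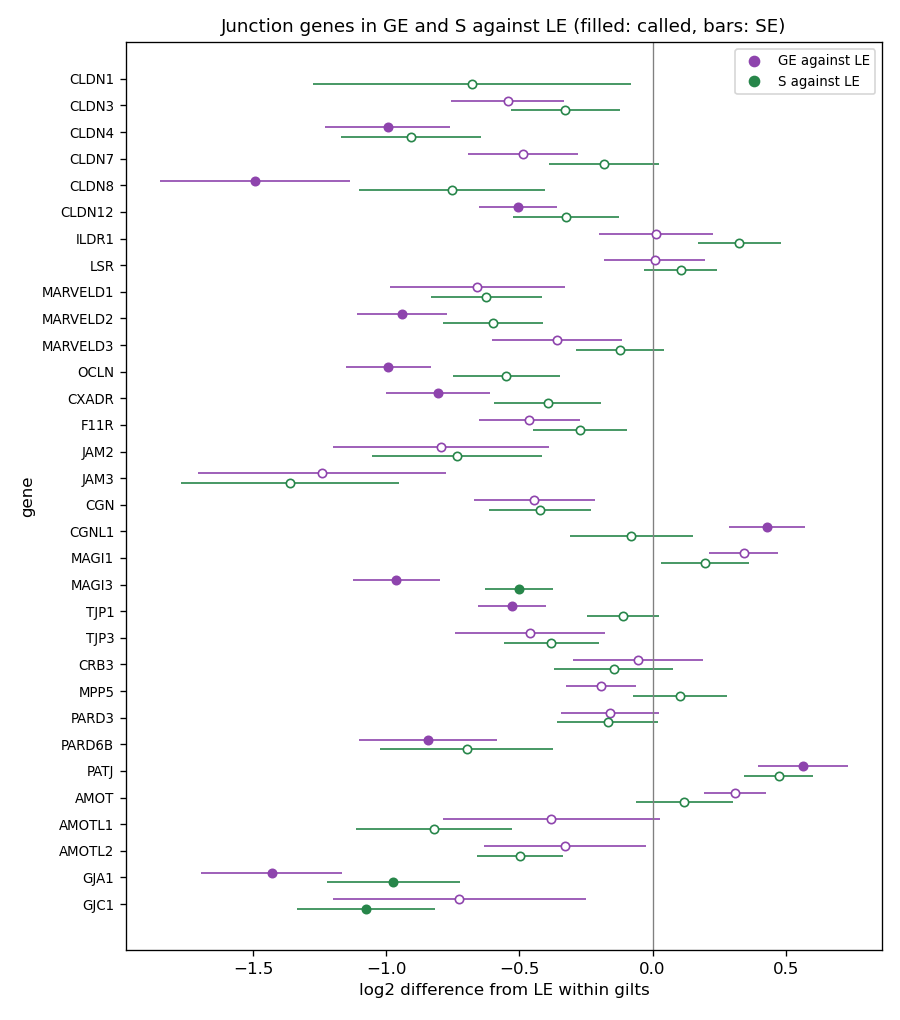
Log2 difference of the junction genes in GE and in S from LE of the same gilts, as the mean over control and pregnant gilts (x axis, bars SE from edgeR with the gilt as block, filled points called). Most points lie left of 0, among them CLDN8 and GJA1 in GE (−1.49 and −1.43), and PATJ and CGNL1 are the called genes to the right in GE (0.56 and 0.43).

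Whether the effect of pregnancy itself differed between GE and LE was tested with the interaction term, which called 1 of 33 junction genes, with 1.41% of all genes called. This was CGNL1 (paracingulin), with an effect lower in GE by −1.49 ± 0.29 on the log2 scale (FDR 0.0423). In LE the control libraries had 162, 215, 215 and 169 CPM and the pregnant ones 246, 371, 232 and 243, all higher, while in GE, as described above, all pregnant values were lower. The call was lost when any of 6 of the 8 gilts was left out. For MARVELD2 the effect in GE was smaller than in LE by a log2 difference of −1.34 ± 0.34, which did not pass (FDR 0.0890). The same holds for GJA1 (−1.52 ± 0.53, FDR 0.201), CLDN4 (−1.20 ± 0.47, FDR 0.249), CLDN3 (−1.04 ± 0.42, FDR 0.271) and OCLN (−0.91 ± 0.32, FDR 0.200), so that a larger effect of pregnancy in LE was not shown for these genes.

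Between S and LE of the same gilts, 3 of 34 junction genes were called, all lower in S, with 9.32% of all 10890 genes called. These were GJC1 (−1.08 ± 0.26, FDR 0.0394), GJA1 (−0.97 ± 0.25, FDR 0.0465) and MAGI3 (−0.50 ± 0.13, FDR 0.0458), the connexins in all 6 gilts and MAGI3 in 5 of 6. All 3 calls were lost without the replicate block and without any of gilts 02, 04, 13 or 14, while 6 and 7 genes were called without gilts 01 and 05. Shares of all genes called in these refits are not given here. In the same comparison 4 of 8 blood endothelial markers (CDH5, EMCN, KDR and PECAM1) and 2 of 8 fibroblast markers (PDGFRB and VIM) were lower in S. Of the 8 epithelial markers, 2 were lower and 1 was higher. The part of these markers in the differences between S and LE was not tested. The interaction of S and LE called 0 of 34 (0.00918% of all genes), with 10 at an unadjusted p below 0.05 in edgeR (13.3% of all genes) and no call with a random block in limma. The differences with the lowest FDR were those of MARVELD2 (−1.68 ± 0.37, FDR 0.208) and OCLN (−1.66 ± 0.40, FDR 0.222). Without gilt 05, whose pregnant S library had the high values described above, 5 junction genes were called in this interaction. The share of all genes called in that fit is not given here, so the 5 cannot be read as particular to junction genes. Between S and GE no junction gene of 35 was called, nor any of the 11124 genes (0%, edgeR), with 5 junction genes at an unadjusted p below 0.05 (12.1% of all genes), and the interaction of S and GE likewise called 0 of 35 (0% of all genes), with 3 below 0.05 (9.26% of all genes). With a random block in limma both counts of junction genes were also 0.

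Per exon length, CLDN8, CLDN4 and CLDN3 had the highest levels in the mean of all libraries of each cell type, but their order differed between the groups. In control gilts CLDN8 led, with a mean of 949 CPM per kb in LE, 278 in GE and 854 in S. In pregnant gilts, with means of 228, 139 and 117, it was below CLDN4 (532, 177 and 178) and CLDN3 (396, 189 and 191). In GE of both groups and in pregnant S these differences were within the spread of the libraries. In pregnant LE, CLDN4 (995 ± 192 CPM, mean ± SD) stood above its control level (294 ± 43.4) while CLDN8 went from 737 ± 88.6 to 178 ± 54.3. In GE, CLDN4 and CLDN3 were level within the spread of their libraries, as they were in S. The lowest genes per length were GJC1 and AMOTL1 in LE, with 4.70 and 3.74 CPM per kb, and MAGI2 in GE, with 0.470. In the mean of all LE libraries, the connexin GJA1 was the fifth (87.1 CPM per kb), whereas GJB5 (7.24) had a lower level there despite its large increase.

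Other genes of the same pathways were counted from lists chosen for their role. Of 26 listed polarity and scaffold partners of tight junctions, 2 were higher and 1 lower in pregnant LE, where 10.0% of all LE genes were called, and 0 in GE and S. YBX3 (ZONAB, which binds ZO-1; log2 FC 1.67 ± 0.16) and MPDZ (MUPP1, a relative of PATJ; 1.81 ± 0.24) rose, and PARD3B, a relative of PARD3, fell (−2.18 ± 0.31). In GE against LE, 10 of 25 such partners were called (7 higher, 3 lower), against 30.9% of all genes. Among them PARD6G (2.30) had the largest increase of the list, opposite in direction to PARD6B. Of the Hippo pathway genes, on which angiomotins act, 1 of 18 was called in LE, the YAP target CTGF (10.0% of all LE genes called), which fell (−2.62 ± 0.46), and 0 of 17 in GE and in S. The other channel proteins PANX1 and LRRC8A were not called for pregnancy in any cell type.

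Some of the genes that changed in LE are neighbours in the genome (Sscrofa11.1). CLDN3 (chr3:11019073-11020102, minus strand) and CLDN4 (chr3:11039711-11053930, plus strand) are 19.6 kb apart and both rose. MARVELD2 (chr16:47529857-47563485) and OCLN (chr16:47600175-47652435), both on the plus strand and 36.7 kb apart, rose as well. In these pairs the members had the same direction in LE, which is a description of few loci.

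The 250 bases before the annotated start of each of 12397 genes were searched on both strands for the letters TGANTCA (AP-1), AACNGGTT (Grainyhead-like) and TTCNNNGAA (STAT). AP-1 letters were found before 3 of the 40 junction genes (F11R, LSR and GJA1) and 4.12% of all genes, Grainyhead-like letters before 1 (CLDN4) and 1.3% of all genes, and STAT letters before 2 (CLDN12 and JAM3) and 5.69% of all genes. The windows of CLDN4 and GJA1 are shown because both genes rose in LE and were among those with the highest level per length there. In CLDN4 (chr3:11039461-11039710, plus strand) the match, in capitals, lies 40 bases before the start, and in GJA1 (chr1:41002130-41002379, minus strand) 58 bases before it. The sequences are from RefSeq and read 5′ to 3′ towards the gene. A match of letters is a description and not a binding site.
CLDN4: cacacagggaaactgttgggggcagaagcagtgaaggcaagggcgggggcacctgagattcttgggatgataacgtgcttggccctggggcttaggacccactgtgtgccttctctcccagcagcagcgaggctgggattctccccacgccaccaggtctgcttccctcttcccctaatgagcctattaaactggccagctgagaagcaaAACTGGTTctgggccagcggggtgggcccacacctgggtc
GJA1: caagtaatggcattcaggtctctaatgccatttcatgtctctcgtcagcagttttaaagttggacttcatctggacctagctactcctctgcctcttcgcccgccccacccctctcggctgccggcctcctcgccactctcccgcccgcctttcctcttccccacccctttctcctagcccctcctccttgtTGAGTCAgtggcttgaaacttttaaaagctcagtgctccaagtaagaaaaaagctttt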

How the data were processed

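Per the labels and the study's methods, libraries were made with the Ovation SoLo system from LCM cells. The authors clipped adapters, mapped reads with Hisat2 to Sscrofa11.1, removed PCR duplicates by random bases and filtered genes by CPM. The deposited tables, 1 per cell type, hold raw read counts per NCBI gene, without normalization. The counting tool, strand setting and CPM limit are not given in the sources used here. Symbols, coordinates and exon lengths came from RefSeq Sscrofa11.1, in which all IDs were found.

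Each cell type was fitted in edgeR 4.0.16 (R 4.3.3) with TMM factors, estimateDisp and the quasi-likelihood F test over all listed genes. Genes were called at a Benjamini-Hochberg FDR below 0.01 in LE and an unadjusted p below 0.0021 in GE and S, the values used in the study. There 0.0021 was the p that corresponded to the FDR limit in LE. Here that limit lay near a quasi-likelihood p of 0.001 (CRB3), so that GE and S had the looser limit. Fewer genes were called here than the study reported, namely 1146 in LE, 81 in GE and 170 in S. Cell types were compared on pairs of tables with the gilt as a fixed replicate block (FDR below 0.05), as the mean of the differences in control and in pregnant gilts. SE was the absolute log2 FC divided by the root of F. Levels are CPM with TMM factors over the 10643 genes in all tables. Counting floors of 3 counts cover counting error only. By the labels, a number marks a gilt. Deviations from group means correlated within gilts with a median of 0.254 (GE and LE), 0.318 (S and LE) and 0.491 (S and GE). Alternatives included RLE factors, library size, filters, other tests (limma 3.58.1, DESeq2 1.42.0) and leaving out gilts. Leaving out gilts 01 and 02 together was added after seeing the data. The members and lists were chosen with earlier results of these data known. Values by library were given for called genes, for the 2 with the highest level per length and for 8 connexins and claudins named by the study, and further genes were described by role. Some members enter the counts but are not reported here by name or value. The fits were tested on simulated data.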

Additional observations from a re-analysis of the deposited data

Results flagged for a closer look

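Single libraries far from the others of their group were looked for in 61 groups of 4 libraries (17 named genes, Dixon ratio at the 95% level), of which chance flags about 1 in 20, and 4 were found. GJA5 was at 281 CPM in control GE of gilt 02, and the next control library had 2.98. GJC1 was at 166 CPM in the same library, with 24.2 next. CGNL1 was at 371 CPM in pregnant LE of gilt 03, above 246 of the next library. F11R was at 36.5 CPM in pregnant GE of gilt 14, below 61.5 of the next.

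The effect of pregnancy on CGNL1 differed between GE and LE by −1.49 on the log2 scale in the interaction test of edgeR (FDR 0.0423). Pregnant libraries were higher than controls in LE (4 of 4) and lower in GE (4 of 4).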

How the results depend on the processing

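Of the log2 FC of the named genes under the alternatives, 667 kept direction and side of the threshold, 36 lost the call, 13 gained it and 16, all of genes without a call, changed sign. The junction genes called in LE were 15, and 8 with only the gilts that have an S library. In GE the count was 1, but 0 with at least 10 counts in every library, filterByExpr, an FDR of 0.05, only the gilts with an S library, or without gilts 01 and 02, and 2 with the likelihood ratio test and DESeq2. In S it was 0, but 1 with library size alone, both filters or without gilts 01 and 02, 3 with the likelihood ratio test and 2 with DESeq2. In GE against LE it was 13, and 5 at an FDR of 0.01. The GE and LE interaction gave 1, and 0 at an FDR of 0.01 or without gilts 01 and 02. S against LE gave 3, but 0 with no replicate block or at an FDR of 0.01, and 1 in the joint fit. Without the replicate block GE against LE gave 12, and the block changed no other count by over 1.5 times. Leaving out 1 gilt at a time gave 11 to 17 in LE, 0 to 1 in GE, 0 to 1 in S, 9 to 16 in GE against LE, 0 to 7 in S against LE, and 0 to 2 (GE and LE) and 0 to 5 (S and LE) in the interactions. S against GE and its interaction gave 0 in each of these. The cause of these shifts was not tested, beyond the smaller number of libraries. For the refits, the shares of all genes called are not given here, so the shifts cannot be read as particular to junction genes.

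Changes of sign were as follows. In GE, CLDN8 was 0.016 with only the gilts that have an S library, and without gilts 01 and 02 GJA5 was 4.41 and GJC1 0.43. Leaving out 1 GE library gave −0.017 to 0.85 for GJA1, −1.40 to 5.24 for GJA5 and −1.35 to 1.02 for GJC1, with the change of sign without gilt 01 for GJA1 and without gilt 02 for the others. In S, OCLN was −0.0057 with library size alone, and without gilts 01 and 02 CGNL1 was −0.50 and GJC1 −0.085. Leaving out 1 S library gave −0.29 to 0.83 for CGNL1 and −0.24 to 1.68 for GJC1, negative without gilt 01. It gave −0.058 to 0.81 for CLDN12, −0.59 to 0.55 for CLDN4, −0.049 to 0.50 for CRB3, −0.62 to 0.45 for OCLN and −0.65 to 0.61 for PARD6B, negative without gilt 05. Differences of genes near 0.703 to 3.61 CPM, which correspond to 3 counts, are limited by depth.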
